A study of Mus musculus with 26 samples.

Results

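Smooth and striated muscle contractile genes were followed in RNA-seq libraries of XY mouse gonads from E13.5. The 10 genes, of 57186 in the count table of all deletions, were Acta2, Myh11, Tagln, Cnn1, Actg2 and Des, which mark smooth muscle and peritubular-type cells (Des is also used in striated muscle), and Actc1, Myl2, Myl4 and Tnnt2, which build the sarcomere of cardiac and embryonic striated muscle. Members were chosen by name with earlier results of these data in view: Myl2 was selected on its measured variation between libraries and on calls in Δ104 and Δ93 against Δ306. Its levels are therefore given here as a description with no test, and no member was tested in those 2 comparisons.

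Wild type (WT) gonads gave 3 libraries. Deletions at the Fgf9 locus named Δ306, Δ225, Δ104 and Δ93 gave 3, 6, 4 and 6 libraries, and a Meis1 knockout (KO) gave 4. FGF9 is a secreted growth factor needed for testis development, and MEIS1 is a homeobox transcription factor. All gonads were labelled XY and had been separated from the mesonephros with syringes. The labels give neither the extent or zygosity of a deletion, nor how Meis1 was inactivated, nor strain, litter, day of collection or pooling, and the libraries of a group may share any of these. WT and Δ306 carry one set of processing notes and the other groups another, so that in comparisons of Δ225, Δ104, Δ93 or KO with WT, and of Δ225 with Δ306, the genotype and whatever separates those sets cannot be told apart.

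Smooth muscle and the myoid cells around testis cords contract with actin and myosin that are regulated on the thick filament by myosin light-chain phosphorylation. Striated muscle arranges other actins and myosins in sarcomeres and is switched by calcium through troponin on the thin filament. Genes of both kinds are known targets of serum response factor (SRF), which binds a short DNA motif, the CArG box. In the fetal testis, myoid cells gain smooth muscle proteins gradually, and Acta2 is also made by vascular smooth muscle and other stromal cells.

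Promoters are shown for a gene of each kind, the actins Acta2 and Actc1, because their windows hold CArG-like letters. The sequences are the 250 bases before the RefSeq start site (GRCm38.p6, 5′ to 3′ on the gene's strand), with CArG-like matches in capitals. Acta2 lies at chr19:34255374-34255623 and Actc1 at chr2:114052876-114053125, both on the minus strand.
Acta2: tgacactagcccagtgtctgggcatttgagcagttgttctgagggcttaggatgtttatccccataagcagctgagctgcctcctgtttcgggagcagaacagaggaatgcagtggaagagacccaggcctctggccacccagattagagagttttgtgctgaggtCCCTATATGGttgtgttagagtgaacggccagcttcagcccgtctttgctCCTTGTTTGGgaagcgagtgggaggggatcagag
Actc1: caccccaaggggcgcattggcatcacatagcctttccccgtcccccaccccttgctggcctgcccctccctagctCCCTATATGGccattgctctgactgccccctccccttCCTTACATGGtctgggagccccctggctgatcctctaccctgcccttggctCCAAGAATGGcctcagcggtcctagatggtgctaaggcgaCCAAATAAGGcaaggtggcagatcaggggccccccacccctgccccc
A match was 2 C, then 6 bases that are A or T with at most 1 exception, then 2 G, a pattern that reads the same on both strands. Acta2 held 2 matches, starting 84 and 34 bases before the start site, and Actc1 held 4, at 175, 138, 87 and 47 bases, of which 1 had no exception. Of the 7 members with a RefSeq window of 300 bases (250 before to 50 after the start), these were the 2 with a match, while 9.98% of all 32851 such windows held one, or 1.63% with no exception. The MEF2 motif was found in none of the members' windows and in 3.19% of all windows. A match is a description of the letters and not evidence of binding, and windows for Myh11, Tagln and Actg2 were not used here. The RefSeq windows of Myl2 (chr5:122092474-122092773 and 122092939-122093238, plus strand) end well before the gene's start in GENCODE M21, at 122100951. The bases next to that start were thus not searched, and nothing is said here of motifs there.

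Total counts per library were 11.6 M to 53.4 M in the table of all deletions (22 libraries) and 35.5 M to 51.7 M in the Meis1 table (7 libraries, the same 3 WT among them). All 10 members passed the filter on low counts in both tables. Fgf9 was at 9.21 to 9.85 CPM (counts per 1000000 counts of a library) in WT and 2.17 to 2.94 in Δ306. It was at 2.30 to 4.75 CPM in Δ93, 2.72 to 6.98 in Δ104 and 3.69 to 16.5 in Δ225, which spanned WT. By DESeq2 in the authors' deposited table, WT exceeded Δ306 by 1.94 on the log2 scale (adjusted p 0.000633) and Δ93 by 1.62 (adjusted p 0.000415). The excess over Δ104 was 0.98 (adjusted p 0.162) and over Δ225 0.42 (adjusted p 0.535), so lower Fgf9 was not established in either. Meis1 had 9 to 29 counts in KO libraries against 2291 to 4030 in WT. The 6 genes of a list of fetal gonad somatic cells summed to 973 to 1693 CPM, so that gonad tissue was present in every deletion and WT library. In 7 libraries the 4 Y-linked genes Ddx3y, Uty, Kdm5d and Eif2s3y summed to under 0.1 of the WT median of 31.6 CPM, against the XY label: Δ306 replicate 3, Δ225 replicate 4, Δ104 replicate 3 and Δ93 replicates 3 to 6. Most libraries above that cut were also below the WT range of 31.2 to 77.2 CPM. They held 6.60 and 3.96 CPM in Δ93, 11.2 and 11.7 in Δ306 and 7.40 to 20.5 in Δ225. In Δ104 they held 5.16, 5.41 and 36.2 CPM. In the Meis1 table KO held 3.67 to 15.8 CPM against 33.3 to 81.6 in WT. Leaving out the 7 libraries thus did not bring the other groups to the WT level. Calls of members are given below with and without these 7 libraries, and calls within other gene lists as counts without them. Δ225 replicate 3 also stood apart, with 2044 CPM over 13 skeletal muscle genes against 42.3 to 82.9 in the other 5 Δ225 libraries.

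Per kilobase of exon, Acta2 was by far the most abundant member in WT gonads. Its level was 78.1 ± 12.4 CPM per kb (SD, n = 3, as for the values that follow), ahead of Actc1 at 14.5 ± 8.86 and Des at 7.76 ± 1.35. Myh11, the smooth muscle myosin heavy chain, was at 3.06 ± 0.038 and the cardiac light chain Myl2 at 2.96 ± 0.23, a difference within their spread. Lower still were Myl4 (1.61 ± 0.39), Tnnt2 (1.47 ± 0.26), Actg2 (1.04 ± 0.18), Cnn1 (0.535 ± 0.133) and Tagln (0.158 ± 0.060 CPM per kb). The length was that of all annotated exons of a gene joined, 7752 bases for Tnnt2, 4637 for Myl4 and 1950 for Myl2. A transcript that uses fewer exons is shorter, so the middle of this order depends on the length taken. By CPM alone Tnnt2 (11.4) and Myl4 (7.48) lay above Myl2 (5.77). Cnn1 and Tagln, markers of differentiated smooth muscle, were the lowest of the 10 in whole gonads in which Acta2 was plentiful.

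Acta2, the smooth muscle α-actin, was lower in Δ306 and Δ93 gonads than in WT and higher in Δ225 than in either. It was at 160, 151 and 202 CPM in the WT libraries and at 49.9, 34.2 and 41.0 in Δ306. The Δ93 libraries ran from 40.5 to 83.0 with a median of 65.1 CPM, and the Δ225 libraries from 165 to 292 with a median of 258. Neither Δ306 nor Δ93 overlapped WT or Δ225. Of all genes tested, 37.6% and 24.7% did not overlap between these groups and WT, and 20.2% and 11% between them and Δ225. Δ104 split, with 31.7 CPM in replicate 1 and 122, 198 and 183 in the others. By group mean the order was Δ225 (238 ± 60.7 CPM, n = 6), WT (171 ± 27.3, n = 3), Δ104 (134 ± 75.6, n = 4), Δ93 (63.7 ± 16.0, n = 6) and Δ306 (41.7 ± 7.91, n = 3).

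The Acta2 differences were tested with edgeR's quasi-likelihood test over all genes with Benjamini-Hochberg adjustment, as were all that follow. Against WT, Acta2 fell by 2.04 on the log2 scale in Δ306 (standard error 0.43, adjusted p 0.00993) and by 1.43 in Δ93 (0.35, adjusted p 0.00932). Δ225 exceeded Δ93 by 1.90 (standard error 0.30, adjusted p 0.000214) and Δ306 by 2.51 (0.41, adjusted p 0.000757). Neighbours at the top of the order could not be separated: Δ225 differed from WT by 0.48 (adjusted p 0.503) and Δ104 from WT by -0.36 (adjusted p 0.653). In the authors' deposited table the log2 fold change of Δ93 over Δ104 was -1.05 (DESeq2, adjusted p 0.0529), so these neighbours were not separated there either. Whether Δ93 and Δ306 differed was not tested, as stated at the start.

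How firmly these Acta2 calls stood depended on the libraries. The call in Δ306 was lost without its replicate 2 (-1.95, adjusted p 0.0554), without its replicate 3 (-2.07, adjusted p 0.0573) and without the libraries of low Y-linked level (-2.06, adjusted p 0.115). Without the last, the Δ93 difference was -1.86 (adjusted p 0.0876, 2 Δ93 libraries left). The Δ225 excess was called in each alternative, at 1.77 to 2.25 over Δ93 and 2.17 to 2.69 over Δ306, and without the low-Y libraries it was 2.25 (adjusted p 0.0399) and 2.45 (adjusted p 0.0435). In whole gonads, fewer cells of a type and less RNA per cell cannot be told apart.

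**Figure D1:**
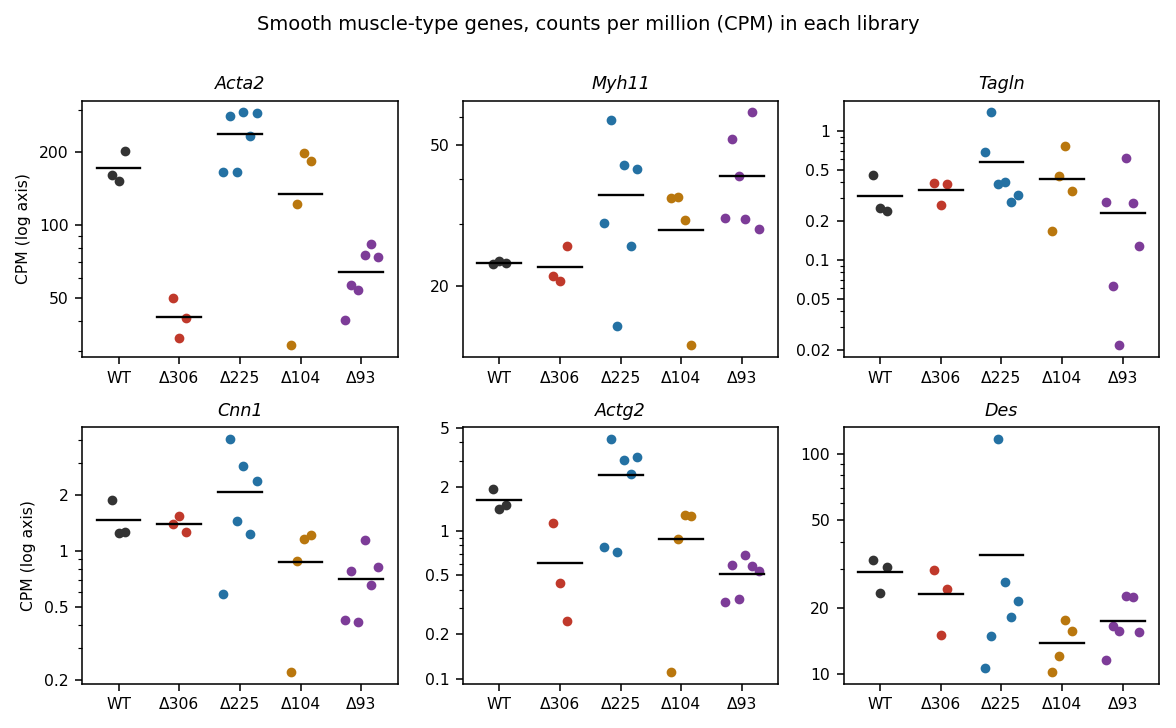
Level of the 6 smooth muscle-type genes in each library of the table of all deletions (CPM, log axis; each point is a library, in replicate order within a group, and the bar is the group mean). Acta2 in Δ306 and Δ93 lies below every WT and Δ225 library, Myh11 does not follow it, and Des in Δ225 replicate 3 stands at 117 CPM.

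Actg2, the enteric smooth muscle γ-actin, and Cnn1, the actin-binding protein calponin, were far scarcer than Acta2 and moved partly with it. Actg2 was at 1.93, 1.4 and 1.5 CPM in WT, at 1.14, 0.446 and 0.247 in Δ306, and at 0.330 to 0.690 (median 0.556) in Δ93. In Δ225 it ranged from 0.725 to 4.21 CPM (median 2.73), above every Δ93 library. Actg2 was higher in Δ225 than in Δ93 by 2.22 (standard error 0.50, adjusted p 0.0035) and than in Δ306 by 1.99 (0.66, adjusted p 0.0473). The second of these calls was lost in 12 of its 17 alternatives, among them that without the low-Y libraries (1.54, adjusted p 0.371). Below WT, Actg2 differed by -1.64 in Δ93 (adjusted p 0.0574) and by -1.41 in Δ306 (adjusted p 0.244), neither of which passed the threshold of 0.05, although no library of either deletion reached a WT value. The Δ93 difference did pass with DESeq2 (-1.64, adjusted p 0.0295), with the replicate number as a block (-2.07, adjusted p 0.0401) and with only the 2 groups in the fit (-1.64, adjusted p 0.00507), and without the low-Y libraries its adjusted p was 0.306.

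Cnn1 was at 1.88, 1.24 and 1.27 CPM in WT and at 1.4, 1.55 and 1.27 in Δ306, which overlapped. Δ93 libraries held 0.412 to 1.14 CPM (median 0.715) and Δ225 libraries 0.585 to 4.04 (median 1.92). The excess of Δ225 over Δ93 was 1.58 (standard error 0.41, adjusted p 0.0101), with Δ225 replicate 1 inside the Δ93 range. Without the low-Y libraries neither Cnn1 (1.69, adjusted p 0.263) nor Actg2 (2.30, adjusted p 0.211) was called in that comparison. In Δ306 Cnn1 thus stayed in the WT range (difference -0.06, adjusted p 0.97) in libraries where Acta2 had fallen.

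Myh11, the myosin of contractile smooth muscle, was called in none of the 8 comparisons. It was at 23.0, 23.6 and 23.2 CPM in WT, at 21.4, 20.6 and 26.0 in Δ306, and reached 29.0 to 61.8 (median 36.0) in Δ93, above each WT library. The Δ93 difference was 0.81 (standard error 0.35, adjusted p 0.122), opposite in sign to that of Acta2 in the same libraries. In Δ225 Myh11 ran from 15.5 to 58.8 CPM and in Δ104 from 13.6 to 35.7, ranges that span WT.

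Des encodes desmin, the intermediate filament of muscle cells. It was at 33.2, 23.4 and 30.8 CPM in WT, 29.8, 15.1 and 24.4 in Δ306, and 10.2 to 17.6 in Δ104. Δ93 libraries held 11.6 to 22.7 CPM, below all WT libraries, as did Δ104. No Des difference was called, the nearest in the deletion tables being Δ225 over Δ93 (0.99, adjusted p 0.102), which was 0.041 (adjusted p 0.921) without Δ225 replicate 3 and 1.19 (adjusted p 0.0439) without Δ225 replicate 1. Des in Δ225 replicate 3 was 117 CPM against 10.7 to 26.2 in the other Δ225 libraries.

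Tagln, the actin-binding protein transgelin, rested on few reads in the table of all deletions. It had 9 to 18 counts in WT libraries, 1 to 23 in Δ93 and 7 to 32 in Δ225, and no difference was called. Its count depended on the table. The same 3 WT libraries held 40 Tagln counts in all in the table of all deletions and 153 in the Meis1 table, 3.83 times as many, while for the other 9 members that ratio was 0.984 to 1.00. Over 17682 genes with at least 30 counts the median ratio was 0.994, and 0.707% of genes had a larger one. In GENCODE M21, 67.9% of the exonic bases of Tagln (chr9:45929619-45936058, minus strand) lie in exons of Pcsk7 or Gm48529 on the opposite strand. How each table assigned reads in that overlap is not given in the sources used here, so Tagln levels are uncertain, and absolute comparisons with other members hold for one table only.

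**Figure D2:**
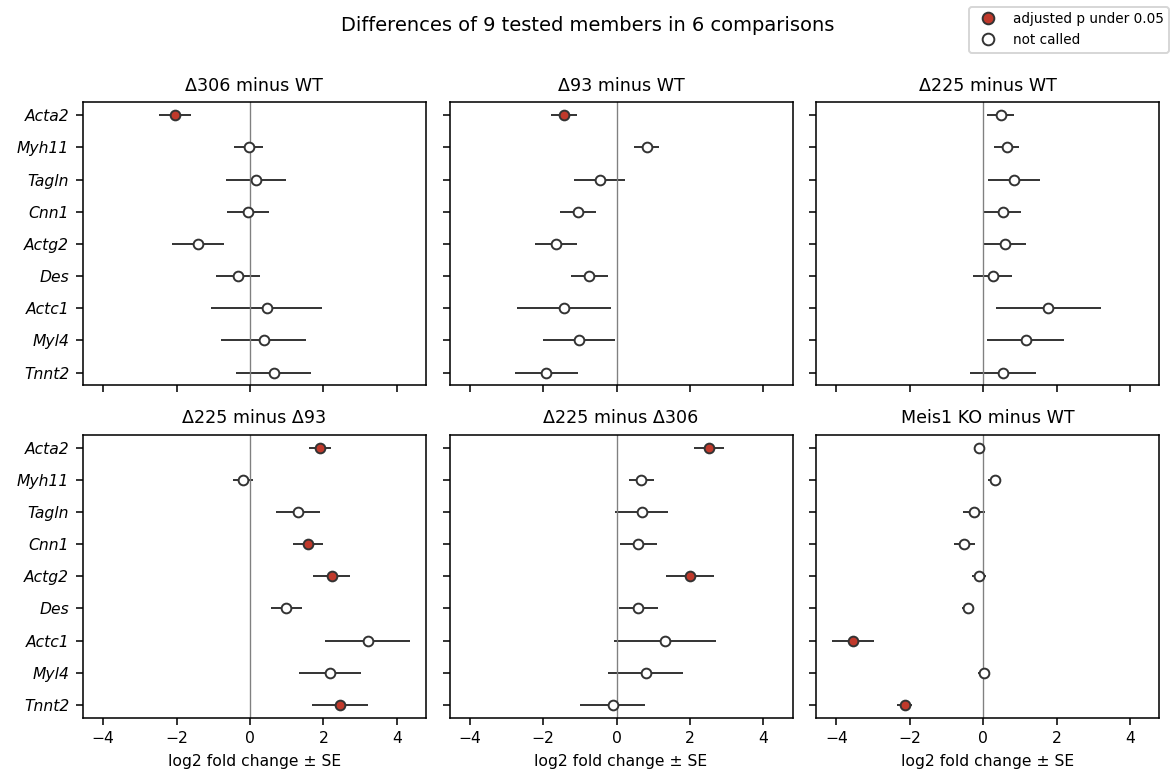
Log2 fold changes of the 9 tested members in 6 comparisons (points, with bars of 1 standard error; filled points have an adjusted p under 0.05 by edgeR). Acta2 is called in Δ306 and Δ93 against WT and in Δ225 against each of these, and Actc1 and Tnnt2 are called in Meis1 KO against WT.

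Read against all genes, the members' calls were few. In Δ306 against WT, 1 of the 9 tested members was called (Acta2), where 6.43% of all 22941 genes tested were. In Δ93 against WT it was again 1 of 9, where 14.1% of all genes were called. None of the 9 was called in Δ225 or Δ104 against WT, where 0.209% and 0.061% of all genes were called. At an unadjusted p under 0.05 none of the members passed in the first of these and 1 in the second (Tnnt2), and DESeq2 called none of the 6 members for which it gave an adjusted p (it gave none for Actc1, Myl4 and Tnnt2). Δ225 against Δ93 called 4 of 9, all higher in Δ225 (Acta2, Actg2, Cnn1, Tnnt2), where 20.8% of all genes were called. Δ225 against Δ306 called 2 of 9 (Acta2, Actg2), where 13.2% of all genes were. Δ225 against Δ104 called none, where 0.645% of all genes were called, with 7 of 9 at an unadjusted p under 0.05 and none of the same 6 called by DESeq2. The median log2 fold change of the 9 members was 1.90 in Δ225 against Δ93 and -1.05 in Δ93 against WT, beside 0.00 and 0.06 over all genes tested. Without Δ225 replicate 3 the first of these medians was 0.043. Groups did not overlap in 3 of the 9 members in Δ306 against WT, and in 6 each in Δ104 and Δ93 against WT. Over all genes tested the shares without overlap were 37.6%, 18.1% and 24.7%. In Δ225 against Δ93 and Δ306 the counts were 2 and 1 of 9, beside 11% and 20.2% of all genes. These comparisons share libraries and are not independent of each other.

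Of 12 other smooth muscle genes, 5 fell with Acta2 in Δ306 and 5 in Δ93. In Δ306 against WT 5 of 12 fell and none rose (median -0.94, all genes 0.08), where 6.43% of all genes were called. Among the 5 were the intermediate filament gene Synm (-1.97, adjusted p 0.0391), the cytoskeletal gene Smtn (-1.66, adjusted p 0.0054) and the myosin light-chain kinase gene Mylk (-1.43, adjusted p 0.0147). In Δ93 against WT 5 fell and 1 rose (median -1.06, all genes 0.06), where 14.1% of all genes were called. The one that rose was Myl9, the regulatory light chain on which that kinase acts (1.28, adjusted p 0.00434). Δ225 exceeded Δ93 in 8 of 12 and was lower in Myl9 (-1.15, adjusted p 0.000751). These 9 of 12 stand beside 20.8% of all genes called in that comparison, and the list median was 0.96 against 0.00 over all genes. All 9 calls were kept without Δ225 replicate 3. Against Δ306, Δ225 was higher in 6 of 12 and lower in 2, Myl9 and Pln, where 13.2% of all genes were called. The lower level of Pln was called in each of 17 alternatives (-3.81 to -2.92) and that of Myl9 in 10 of 17. Of these 8 calls, 2 were kept without the low-Y libraries, those of Mylk and Pln. Some calls against WT were less firm: in Δ306 that of Synm was lost in 9 of 15 alternatives (adjusted p up to 0.196) and that of Cald1 in 10 of 15 (up to 0.243). Without the low-Y libraries none of the calls in Δ306 or Δ93 against WT was kept, though each of these genes kept its sign, and 2 of the 9 calls were kept in Δ225 against Δ93 (Mylk and Synm).

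Of 7 genes for SRF and its partners, 5 had no call against WT in any deletion, Srf and Myocd among them. Mef2c fell in Δ306 (-1.50, adjusted p 0.037) and Δ93 (-1.45, adjusted p 0.0081), as did Mef2d (-0.81, adjusted p 0.00354, and -0.37, adjusted p 0.0332), both MADS-box factors of muscle genes. These 2 of 7 stand beside 6.43% and 14.1% of all genes called in Δ306 and Δ93 against WT. The Mef2c call in Δ306 was lost in 8 of 15 alternatives (adjusted p up to 0.228) and the Mef2d call in Δ93 in 11 of 17 (up to 0.187). Δ225 exceeded Δ306 in 5 of the 7 genes and Δ93 in 3, where 13.2% and 20.8% of all genes were called. Among them was Myocd, the SRF coactivator of smooth muscle, over Δ306 (2.39, adjusted p 0.00523) and Δ93 (1.60, adjusted p 0.00518). Mef2c was called over both as well, by 1.72 over Δ93 (adjusted p 0.000437). Pericytes, the mural cells of small vessels, share Acta2, and their markers moved in the same libraries. Of 7 tested, Pdgfrb (-1.68), Cspg4 (-1.86) and Notch3 (-1.60) fell in Δ306 against WT, and these and Mcam fell in Δ93. Of all genes, 6.43% and 14.1% were called in these comparisons. Pericyte genes were higher in Δ225 than in Δ306 in 4 of 7 and than in Δ93 in 5 of 7, beside 13.2% and 20.8% of all genes called. Without the low-Y libraries none of the SRF-partner or pericyte calls in Δ306 or Δ93 against WT or in Δ225 against either was kept, though each of these genes kept its sign. The 8 pericyte genes summed to 522 to 742 CPM in WT, 167 to 329 in Δ306, 175 to 296 in Δ93 and 286 to 665 in Δ225. In Δ104 replicate 1, the library lowest in Acta2, they summed to 163 CPM against 312 to 455 in the other Δ104 libraries. By edgeR none of the 12 smooth muscle, 7 SRF or 7 pericyte genes was called in Δ104 against WT (3, 2 and 4 at an unadjusted p under 0.05) or in Δ225 against WT (2, 2 and 0). The part of mural cells in the Acta2 difference was not tested.

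The genes most like Acta2 over the 22 libraries (Pearson r of log2 CPM, mean CPM of at least 1) were Mylk (0.97), Egflam (0.97), Bhlhe40 (0.96), Hsd3b1 (0.96) and Thbd (0.96). Hsd3b1 is a steroidogenic enzyme. Within the members, Acta2 had r = 0.89 with Actg2, 0.64 with Cnn1 and 0.01 with Myh11. These are descriptions over libraries that share groups and depth, and Tagln, Cnn1 and Actg2 carry few counts.

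Cardiac actin Actc1, atrial and embryonic light chain Myl4 and cardiac troponin T Tnnt2 were set apart by a single library. Actc1 was at 463 CPM in Δ225 replicate 3 and at 1.76 to 7.25 in the other 5 Δ225 libraries. Myl4 was at 89.8 CPM there against 1.07 to 3.08, and Tnnt2 at 84.2 against 2.48 to 3.61. The same library held high levels of skeletal muscle genes, namely Acta1 at 357 CPM, against 0.291 to 13.53 in the other 21 libraries. Myh3, embryonic skeletal myosin, was at 713 CPM, and the myogenic factors Myog and Myod1 at 42.1 and 16.3 CPM, 3 genes singled out after their values were seen. Smaller excesses of the 13 skeletal genes were seen in Δ93 replicate 5 (187 CPM in sum) and WT replicate 3 (147 CPM), the libraries highest in Actc1 (26.8 and 39.1 CPM) and Myl4 (8.39 and 9.36 CPM) within their groups. The origin of this muscle RNA was not tested.

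**Figure D3:**
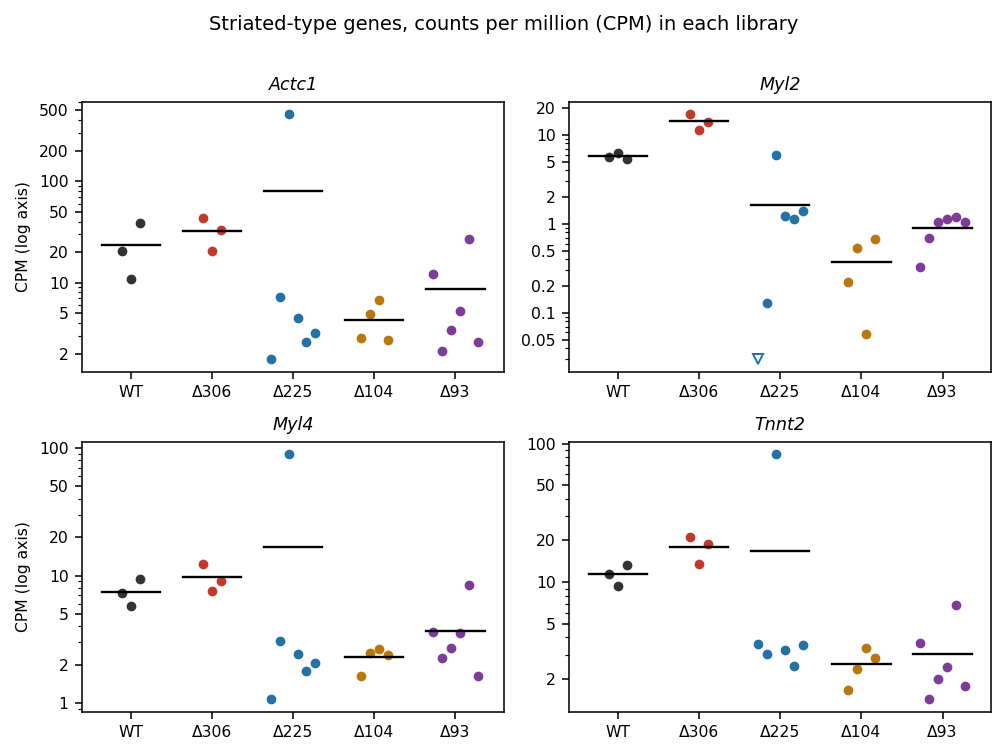
Level of the 4 striated-type genes in each library of the table of all deletions (CPM, log axis; each point is a library and the bar is the group mean). Open triangles mark a library with 0 counts, drawn at the foot of the axis. Δ225 replicate 3 lies far above the other Δ225 libraries, whose levels resemble those of Δ104 and Δ93, and WT and Δ306 lie above most of these.

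The statistics of these genes followed that library. With it, Tnnt2 was called higher in Δ225 than in Δ93 (2.46, standard error 0.77, adjusted p 0.0276), and without it the difference was 0.043 (adjusted p 0.942). Without the low-Y libraries it was 2.97 (adjusted p 0.316). Actc1 and Myl4 differed between Δ225 and Δ93 by 3.21 and 2.18 with it (adjusted p 0.0548 and 0.074) and by -1.18 and -0.83 without it (adjusted p 0.161 and 0.102). Without it, Δ225 was below WT in Tnnt2 (-1.84, adjusted p 0.0347) and Myl4 (-1.81, adjusted p 0.0491), and below Δ306 in Actc1 (-3.07, adjusted p 0.00594), Myl4 (-2.20, adjusted p 0.00176) and Tnnt2 (-2.51, adjusted p 0.000525). None of these 5 was called with all libraries or in another alternative. Of the list genes called in Δ225 against Δ93, the 4 skeletal and 5 shared sarcomere genes, Acta1, Ckm, Ttn and Ldb3 among them, were all lost without the library. The authors' deposited table gives no adjusted p for Actc1, Myl4 or Tnnt2 in any of its 10 comparisons.

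Apart from that library and Δ93 replicate 5, the 3 genes lay higher in WT and Δ306 than in most libraries of the other deletions. Tnnt2 was at 11.5, 9.36 and 13.3 CPM in WT and 21.2, 13.47 and 19.0 in Δ306, against 1.67 to 3.37 in Δ104 and 1.43 to 6.84 in Δ93. Myl4 was at 7.26, 5.81 and 9.36 CPM in WT and 12.3, 7.55 and 9.11 in Δ306, against 1.64 to 2.67 in Δ104 and 1.63 to 8.39 in Δ93. Actc1 was at 20.4, 10.9 and 39.1 CPM in WT, 43.6, 20.5 and 32.9 in Δ306, 2.72 to 6.69 in Δ104 and 2.13 to 26.8 in Δ93. Δ104 did not overlap WT in any of the 3, as was so for 18.1% of all genes tested, and none passed the adjusted threshold (Tnnt2 -2.17, adjusted p 0.296). This division runs along the same line as the sets of processing notes.

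Myl2, the ventricular regulatory light chain, showed the division most fully, as its choice implies. It was at 5.70, 6.25 and 5.35 CPM in WT and 17.2, 11.3 and 14.1 in Δ306, so that Δ306 lay above WT. It was at 0.0581 to 0.681 CPM in Δ104 and 0.330 to 1.18 in Δ93. In Δ225 it ranged from 0 to 5.95 CPM (median 1.17), the top value being replicate 3, the only library of these 3 groups to reach the WT range. Its value of 0 counts in Δ225 replicate 1 allows up to 0.293 CPM (3 counts, counting error only). By mean the order was Δ306 (14.2 ± 2.97 CPM), WT (5.77 ± 0.45), Δ225 (1.63 ± 2.19), Δ93 (0.905 ± 0.330) and Δ104 (0.375 ± 0.286), and the ranges of Δ225, Δ93 and Δ104 overlapped. Set against the peritubular-type genes, Myl2 did not track Acta2 (r = -0.23 over 22 libraries): Δ306 had the lowest Acta2 and the highest Myl2 of the 5 groups. With Actc1, Myl4 and Tnnt2 it had r = 0.65, 0.69 and 0.72, while Actc1 and Myl4 had 0.98, or 0.97 without Δ225 replicate 3.

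**Figure D4:**
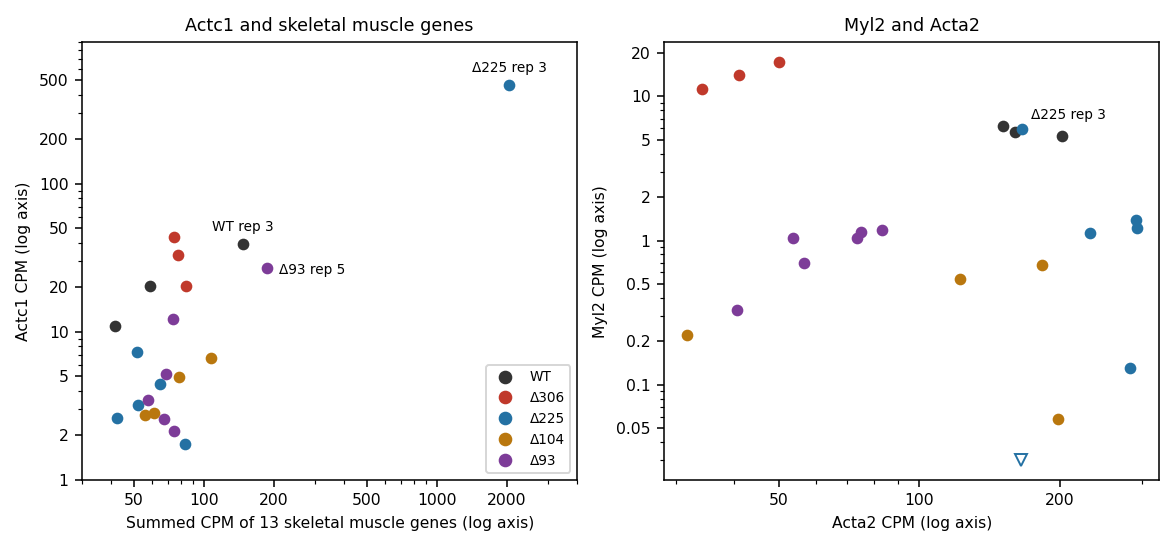
Left, Actc1 against the summed level of 13 skeletal muscle genes; right, Myl2 against Acta2 (CPM, log axes; each point is 1 of 22 libraries and colour gives the group). Δ225 replicate 3 is at 2044 and 463 CPM on the left. On the right Δ306 holds the highest Myl2 beside low Acta2, and the open triangle is a library with 0 Myl2 counts.

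The genes most like Myl2 were cardiac ones, Myl3 (r = 0.93), Myh7 (0.91) and Myh6 (0.88), the essential light chain and heavy chains of heart muscle, followed by Gmfg (0.83) and Cyp27a1 (0.79). Myl3 was at 2.78 to 2.89 CPM in WT, 4.85 to 8.25 in Δ306, 0.058 to 0.876 in Δ104 and 0.455 to 0.902 in Δ93. It was picked by its correlation with Myl2 over these same libraries, so this pattern is not a separate observation. In a list of 12 cardiac genes, 4 were called lower and 1 higher in Δ93 against WT, where 14.1% of all genes were called. The natriuretic peptide genes Nppa (-2.81, adjusted p 0.0196) and Nppb (-3.0, adjusted p 0.0278), the myosin-binding protein gene Mybpc3 (-3.32, adjusted p 0.00509) and Myl7 fell. The calcium channel gene Ryr2 rose (2.29, adjusted p 0.0122). Nppa (-4.07), Nppb (-3.07) and the cardiac factor Nkx2-5 (-2.79) were lower in Δ225 than in Δ306, with adjusted p of 0.00239, 0.0331 and 0.0214. They were among 4 of 12 called there, all lower, where 13.2% of all genes were called. Between Δ225 and Δ93, which share processing notes, 3 of 12 were called, where 20.8% of all genes were. Mybpc3 (2.92, adjusted p 0.00333) and Myoz2 (3.35, adjusted p 0.0089) were higher in Δ225, and Ryr2 lower (-2.27, adjusted p 0.00117). Without Δ225 replicate 3 the Myoz2 call was lost, and without the low-Y libraries only that of Ryr2 was kept. In Δ93 against WT the calls of Nppa and Ryr2 were each lost in 4 of 17 alternatives, and that of Myl7 in 11 of 17. The 4 calls that could be fitted without the low-Y libraries were those of Myl7, Nppa, Mybpc3 and Ryr2, and none was kept. Ryr2 was also called lower in Δ225 than in Δ306, at -2.03 to -1.57 over 17 alternatives, of which 4 lost the call. In that comparison the Nppb call was lost in 7 of 12 alternatives and the Nkx2-5 call in 5 of 16. Without the low-Y libraries 3 of these cardiac calls could be fitted, those of Nppa, Ryr2 and Nkx2-5. Of these, 1 was kept, that of Nppa (-4.59, adjusted p 0.0425). Nppa and Nppb had at most 5 counts in any Δ225 or Δ93 library and 9 to 23 in WT. By edgeR no cardiac gene was called in Δ306, Δ225 or Δ104 against WT, with 2, 3 and 6 of 12 at an unadjusted p under 0.05. The part of heart tissue in these levels was not tested.

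In the Meis1 KO no smooth muscle-type member was called, while 2 of the 3 tested striated members fell. Acta2 was at 190, 190, 151 and 148 CPM in KO and 172, 162 and 214 in WT (difference -0.11, adjusted p 0.722). Myh11, Tagln, Cnn1, Actg2 and Des were not called either, with differences from -0.51 (Cnn1) to 0.31 (Myh11). Tnnt2 was at 3.30, 2.61, 1.98 and 3.09 CPM in KO and 12.2, 9.93 and 14.1 in WT, without overlap, and fell by 2.14 (standard error 0.21, adjusted p 0.00619). Actc1 was at 2.01, 1.13, 4.24 and 1.01 CPM in KO and 21.7, 11.6 and 41.1 in WT, and fell by 3.55 (standard error 0.58, adjusted p 0.0352). Myl4 did not move with them: it was at 8.0, 8.08, 7.40 and 9.08 CPM in KO and 7.89, 6.32 and 9.83 in WT (0.02, adjusted p 0.959). In all, 2 of the 9 tested members were called, both lower, where 1.8% of 16791 genes tested were called. The same 2 of 9 did not overlap between KO and WT, where 19.7% of all genes tested did not.

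**Figure D5:**
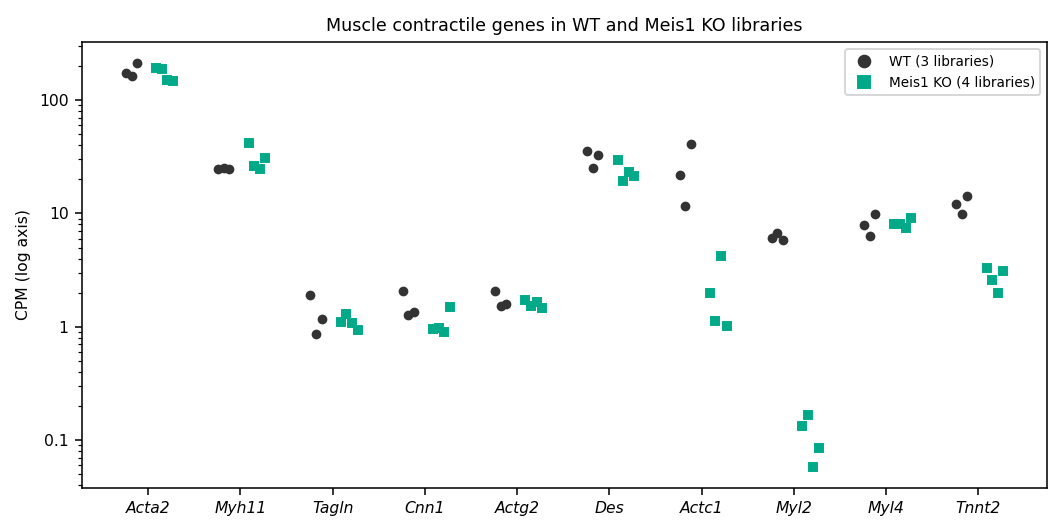
Level of the 10 members in the Meis1 table (CPM, log axis; circles are 3 WT and squares 4 KO libraries). Actc1, Myl2 and Tnnt2 are lower in each KO library than in any WT library, and Acta2, Myl4 and the other members overlap.

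Myl2 had 6, 7, 3 and 4 counts in the KO libraries and 227, 316 and 209 in WT, that is 0.111 ± 0.049 CPM (n = 4) against 6.22 ± 0.42 (n = 3). Other cardiac genes were lower in KO as well, 5 of 10 tested being called and none higher, where 1.8% of all genes were called. They were Myl3 (-4.13, adjusted p 0.00421), Nppa (-4.13, adjusted p 0.0397), Myh7 (-2.17, adjusted p 0.000179), Myh6 (-1.28, adjusted p 0.0443) and Mybpc3. Of the 12 other smooth muscle genes only Pln, a regulator of the calcium pump that heart muscle also uses, fell (-3.38, adjusted p 0.00523), and no SRF-partner or pericyte gene was called by edgeR (3 and 1 of 7 at an unadjusted p under 0.05). Of 11 skeletal genes tested, fetal myosin Myh8 rose (1.14, adjusted p 0.0268), and of 7 shared sarcomere genes Ldb3 fell (-1.26, adjusted p 0.0263). The Actc1 call was lost in 7 of 14 alternatives, 6 of them with 1 library left out (WT replicates 2 and 3 and each KO replicate, adjusted p up to 0.124), and that of Tnnt2 in 1, without KO replicate 2 (adjusted p 0.0503). Among the list genes the calls of Nppa and Ldb3 were each lost in 8 of 14 alternatives and those of Myh6 and Myh8 in 7, while those of Myl3, Myh7 and Mybpc3 were lost in 0 of 14. Red blood cell genes were lower too, 2 of 7 being called, as was the Y-linked gene Uty (-3.46, adjusted p 0.0194), and these calls were lost in 6 or 7 of 14 alternatives. KO Tnnt2 was at levels like those of Δ104 and Δ93 in the other table and KO Myl2 at or below them, whereas KO Myl4 was in the WT range. The tables were normalized separately, so these levels stand side by side only.

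Lists of other tissues gave values beside these results. The 7 mesonephric genes summed to 13.7 to 28.8 CPM in WT and 31.1 to 58.6 in Δ306, and 30.9 to 58.4 in Δ93, where Pax8 rose (1.54, adjusted p 0.0225) and Wnt9b fell (-4.46, adjusted p 0.00952). The 7 red blood cell genes ranged from 3450 to 58181 CPM over the 22 libraries, with no call in the deletions against WT by edgeR (1 gene at an unadjusted p under 0.05, in Δ306). Of the 6 gonad somatic genes, Emx2 rose and Tcf21 fell in both Δ306 and Δ93 against WT, and Wt1 rose in Δ93. Over all genes tested, 6.43% were called in Δ306 and 14.1% in Δ93 against WT. All 4 Y-linked genes fell in Δ93 against WT, but the Eif2s3y call was lost in 15 of 17 alternatives (adjusted p up to 0.339) and the Kdm5d call in 8 of 16 (up to 0.326). Without the low-Y libraries none of the gonad somatic, mesonephric or Y-linked calls against WT was kept. The part of these lists in the members' levels was not tested.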

How the data were processed

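The authors deposited raw read counts per gene in a table of WT and all deletions and in a Meis1 table with the same WT libraries. Per the submitters' processing notes the build was mm10, with STAR 2.7.10a, Subread, featureCounts and DESeq2 for WT and Δ306, and STAR and DESeq2 for the rest. The library kit was directional, per the labels, but the counting setting for strand is not given in the sources used here. Log2 fold changes and adjusted p-values from the authors' deposited table of comparisons are quoted where named, and its identifiers gave symbols for 56651 of 57186 genes.

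Tests on counts ran in edgeR 4.0.16 under R 4.3.3 (low counts removed by filterByExpr, TMM scaling, quasi-likelihood F-test, Benjamini-Hochberg over all genes tested; called at an adjusted p under 0.05), in 1 fit of 22 libraries (22941 genes) and 1 of the Meis1 table (16791 genes). CPM uses TMM-scaled totals, log2 CPM a prior count of 2. On simulated counts the script was checked for recovery of known changes. Alternatives included DESeq2 1.42.0, other normalizations, no filter and each library left out.

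Members and lists were chosen with earlier results of these data known. The text names all members and, per list and comparison, some of the called genes, which are not always those of largest change. It also names the 5 genes most correlated with Acta2 and with Myl2. Gene positions come from GENCODE M21 on GRCm38 and promoters from RefSeq. Labels say that libraries are separate samples, not that they are separate litters, so p-values measure the spread between these libraries, and precision is limited by their number.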

Additional observations from a re-analysis of the deposited data

Results flagged for a closer look

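Of 40 groups of 4 to 6 libraries checked over the 10 members, 8 held a library whose gap to its nearest neighbour took up an unusually large share of the group's range (Dixon's criterion at the 95% level), all on the high side. Chance gives about 1 in 20 groups, but the 8 cannot be weighed against that rate. Myl2, chosen for its variation between libraries, is among them, and 5 of the 8 come from Δ225 replicate 3, so they are not separate events. In Δ225 replicate 3, 5 members stood out: Des at 117 CPM (others 10.7 to 26.2), Actc1 at 463 CPM, Myl4 at 89.8 CPM, Tnnt2 at 84.2 CPM and Myl2 at 5.95 CPM (others 0 to 1.39). Acta2 in that library was within its group. Myl4 stood out in Δ93 replicate 5 at 8.39 CPM (others 1.63 to 3.58), a library with a raised sum of skeletal muscle genes. Tagln stood out in Δ225 replicate 2 at 1.39 CPM (others 0.281 to 0.683), on few counts. Cnn1 stood out in Meis1 KO replicate 4 at 1.5 CPM (others 0.901 to 0.983).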

How the results depend on the processing

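Depth limits Tagln, Cnn1 and Actg2, which had at most 32, 130 and 138 counts in a library of the table of all deletions, and 3 WT libraries limit every comparison with WT. With each library left out in turn, the number of called members ran from 0 to 1 for Δ306 against WT, 0 to 2 for Δ225 and 1 to 1 for Δ93 against WT, 0 to 2 for Meis1 KO, 3 to 7 for Δ225 against Δ93, 1 to 5 for Δ225 against Δ306, and 0 to 0 for Δ104 against WT and Δ225 against Δ104. Without the libraries of low Y-linked level it was 0 for Δ306 and 0 for Δ93 against WT, 1 for Δ225 against Δ93 and 1 for Δ225 against Δ306. At an adjusted p under 0.01 it was 1 for KO, 2 for Δ225 against Δ93 and 1 for Δ225 against Δ306. Δ225 against Δ306 also gave 1 with no composition factor, with no filter and with only those 2 groups in the fit. Δ93 against WT gave 2 with DESeq2 and 5 with only those 2 groups in the fit. Apart from fewer libraries, the cause of these shifts was not tested.

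The labels tie replicate numbers to no litter or day, so the main fit did not use the numbers to pair the samples. Same-numbered libraries deviated together in some pairs and not in others (r from -0.27 to 0.48). Whether some of them share a litter or day was not tested. With the replicate number as a block, 2 members were called in Δ93 against WT and 1 in Δ225 against Δ306, and Tnnt2 was no longer called in Δ225 against Δ93 (1.43, adjusted p 0.190), nor with only those 2 groups in the fit (2.47, adjusted p 0.0849). Under that block these uncalled differences changed sign: Des (-0.040) and Tnnt2 (-0.21) in Δ225 against WT, Myl4 (-0.012) in KO, and Actc1 (-0.37) and Myl4 (-0.27) in Δ225 against Δ306. With no composition factor Myh11 (0.050) and Cnn1 (0.022) turned in Δ306 against WT, and in the separate table of WT and Δ306 so did Myh11 (0.040), Cnn1 (0.020) and Tagln (-0.40). Without the low-Y libraries Tagln (-0.061) turned in Δ104 against WT and Tnnt2 (0.18) in Δ225 against Δ306.

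With single libraries left out, 27 member values turned, 4 of them called, all 4 without Δ225 replicate 3. Log2 ranges of the differences that turned were, in Δ306 against WT, -0.21 to 0.14 for Cnn1 and -0.047 to 0.48 for Tagln. In Δ225 against WT they were -0.66 to 0.42 for Des, -2.58 to 2.28 for Actc1, -1.81 to 1.41 for Myl4 and -1.84 to 0.79 for Tnnt2, and in Δ104 against WT -0.011 to 0.72 for Tagln. In KO they were -0.19 to 0.012 for Acta2, -0.49 to 0.12 for Tagln, -0.21 to 0.043 for Actg2 and -0.13 to 0.19 for Myl4. In Δ225 against Δ93 they were -1.18 to 3.99 for Actc1 and -0.83 to 2.59 for Myl4, and for list genes -1.28 to 4.69 (Acta1), -0.45 to 3.27 (Tnnt3), -0.61 to 3.57 (Tnni2), -1.0 to 5.04 (Ttn), -0.49 to 2.90 (Ldb3) and -0.063 to 1.96 (Myom1). In Δ225 against Δ306 they were -0.35 to 0.81 for Des, -3.07 to 1.56 for Actc1, -2.20 to 1.02 for Myl4 and -2.51 to 0.12 for Tnnt2. In Δ225 against Δ104 they were -0.066 to 0.86 for Tagln, -0.14 to 4.53 for Actc1 and -0.11 to 3.11 for Myl4.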
